A study of Mus musculus with 7 samples.

Results

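The serine and selenocysteine tRNAs are the cytosolic tRNAs that seryl-tRNA synthetase charges. They were taken as every row whose name holds tRNA-Ser- or tRNA-SeC-, without exon, intron and UTR pieces. This gave 15 of the 3894 whole-RNA rows of the count table. Of these, 14 were serine tRNA (tRNA-Ser) rows in 5 anticodon families, tRNA-Ser-AGA, tRNA-Ser-CGA, tRNA-Ser-GCT, tRNA-Ser-GGA and tRNA-Ser-TGA. The selenocysteine tRNA (tRNA-SeC) had 1 row, with the anticodon TCA. Families are called by their anticodon from here on.

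A serine tRNA carries a long variable arm between its anticodon and T arms, which seryl-tRNA synthetase recognises in place of the anticodon, and leucine tRNAs are the other cytosolic class with such an arm. The GCT family reads the AGC and AGU codons of serine, while the others read the UCN box. The selenocysteine tRNA reads UGA, which is otherwise a stop codon. It is first charged with serine, which is then converted to selenocysteine on the tRNA. Dis3l2 is a 3′ to 5′ exoribonuclease of the cytoplasm that degrades RNAs with a tail of added uridines, and aberrant tRNAs are among its known substrates.

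RNA was read from RAW264.7, a mouse macrophage line, and from the extracellular vesicles (EVs) that the cells shed into the medium. Per the labels' protocols, EVs were banded in sucrose and then digested with micrococcal nuclease before RNA was extracted, and all lines received doxycycline at 1 µg/mL. EV libraries came from 5 lines: cells with an shRNA against Dis3l2 and a Dis3l2 transgene made catalytically inactive by the D389N change (D389N), cells with the same shRNA and an shRNA-resistant Dis3l2 transgene (Dis3l2r), cells with the same shRNA and an empty vector (Vector), cells with the shRNA alone (shDis3l2), and cells with a non-silencing shRNA (shNS). Whole-cell RNA, for which the labels state rRNA depletion (no such step is stated for EV RNA), came from the shDis3l2 and shNS lines. The labels do not say whether a line is 1 clone.

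Each of the 7 groups had 1 library, so single pairs have counting intervals and no test. Counts on whole-RNA rows came to between 13439408 and 25177102 in EVs and to 32342600 and 37041326 in shDis3l2 and shNS cells. Named tRNA rows took 70.2% to 76.9% of these counts in EVs, against 9.09% in shDis3l2 cells and 13.7% in shNS cells. A single transcript row with no gene name held 46.1% of the counts of shDis3l2 cells and 19.3% of those of shNS cells. The knockdown itself, macrophage markers, seryl-tRNA synthetase and the enzymes of selenocysteine synthesis were not analysed here, because transcript IDs could not be matched to gene names. Levels are counts scaled to a common whole-RNA total (CPM), so more copies of a tRNA and less of the other RNAs in a library cannot be told apart.

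In the names, the first number after the anticodon marks a distinct sequence and the last number its gene copy, and all 15 names end in copy 1. The RefSeq annotation of GRCm38.p6 was used with the genes of 1 chromosome left out, so its full list may be longer. What remained was 22 nuclear serine tRNA genes against the 14 rows: 7 against 3 for AGA, 3 against 3 for CGA, 8 against 5 for GCT, 1 against 1 for GGA and 3 against 2 for TGA. Of the 22 genes, 12 lie on chromosome 13. All of them are 82 bases long except the GGA gene, n-TSgga1 at chr11:100538158-100538230, which has 73 bases. No tRNA sequences were at hand, so the long variable arm was not checked for this shorter gene or for any row. RefSeq numbers the copies in its own way, so no row was tied to a single gene. Rows of a family have similar sequences, and the authors' estimator may split reads among them, so each row's value is less certain than its family sum.

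By whole-RNA totals, all 6 families stood higher in each of the 5 EV libraries than in either cell library, while as shares of tRNA counts the EV and cell ranges of selenocysteine and GCT overlapped. The selenocysteine family had 20097 CPM in D389N EVs, 13607 in Dis3l2r EVs, 9942 in Vector EVs, 9170 in shDis3l2 EVs and 14239 in shNS EVs, against 3197 in shDis3l2 cells and 3407 in shNS cells. The 2 cell libraries lay close together, while the 5 EV libraries spanned a 2.19-fold range with D389N highest. Serine rows together had 30791 CPM in D389N EVs, 21458 in Dis3l2r EVs, 26803 in Vector EVs, 20133 in shDis3l2 EVs and 16671 in shNS EVs, against 1869 in shDis3l2 cells and 3391 in shNS cells. Here the EVs of shNS were the lowest of the 5.

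**Figure D1:**
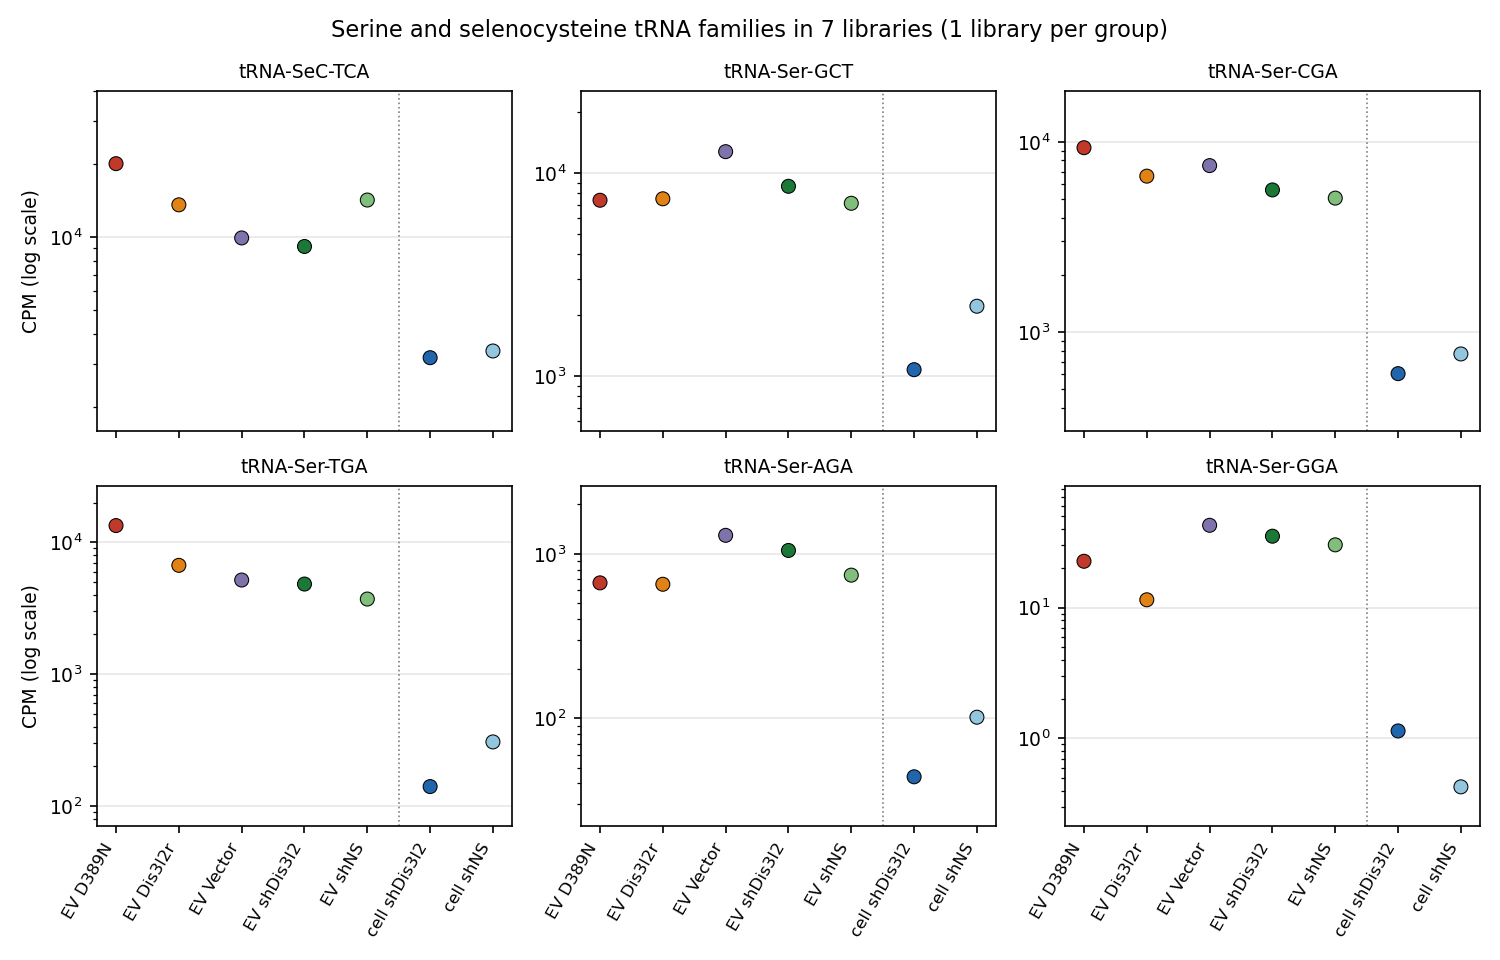
CPM (counts scaled to the whole-RNA total; log axis, scaled separately in each panel) of the 6 families in the 7 libraries, 1 point per library, with EVs left of the dotted line and cells right of it. On this scale, in every panel the lowest EV point lies above both cell points, and TGA, for example, had 13399 CPM in D389N EVs against 140.3 CPM in shDis3l2 cells.

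Among the serine families, GCT had 7363 CPM in D389N EVs, 7485 in Dis3l2r EVs, 12768 in Vector EVs, 8625 in shDis3l2 EVs and 7114 in shNS EVs, against 1079 in shDis3l2 cells and 2215 in shNS cells. CGA had 9341 CPM in D389N EVs, 6619 in Dis3l2r EVs, 7520 in Vector EVs, 5600 in shDis3l2 EVs and 5072 in shNS EVs, against 604.7 in shDis3l2 cells and 767.7 in shNS cells. Vector EVs were thus the highest library for GCT, and D389N EVs for CGA. TGA had 13399 CPM in D389N EVs, 6689 in Dis3l2r EVs, 5174 in Vector EVs, 4824 in shDis3l2 EVs and 3713 in shNS EVs, against 140.3 in shDis3l2 cells and 306.0 in shNS cells. The D389N library was the highest for this family and the Dis3l2r library the next. AGA had 666.2 CPM in D389N EVs, 653.3 in Dis3l2r EVs, 1297 in Vector EVs, 1049 in shDis3l2 EVs and 742.4 in shNS EVs, against 43.9 in shDis3l2 cells and 101.3 in shNS cells. For this family, Vector and shDis3l2 EVs were the highest and Dis3l2r EVs the lowest of the 5. GGA is a rare row: it had 473 counts in D389N EVs, 154 in Dis3l2r EVs, 1071 in Vector EVs, 647 in shDis3l2 EVs and 714 in shNS EVs, against 37 in shDis3l2 cells and 16 in shNS cells.

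The first question the groups allow is how EV RNA differs from the RNA of the cells. In a fit across 642 RNAs (edgeR quasi-likelihood test, 5 EV against 2 cell libraries, Dis3l2 class as a covariate), 14 of the 15 rows passed the filter on low counts and 12 of them were higher in EVs at a Benjamini-Hochberg adjusted p under 0.05. None was lower. Of all RNAs tested, 31.2% were called higher, and of the 197 tRNA rows tested, 142 were, so most tRNA rows shared this call. With totals of tRNA rows as the scale, 6 of the serine and selenocysteine rows were called higher and 2 lower. The row tRNA-Ser-AGA-1-1, with 0 counts in cells, passed the filter only through its EV counts. Without it and the row of GGA, which had 37 and 16 counts in shDis3l2 and shNS cells, 10 of 12 rows were called. The 14 rows had a median log2 fold change of 3.24, against 3.19 for the 18 leucine rows, 2.31 for the 197 tRNA rows tested and -1.33 for all RNAs tested. Both the serine and leucine medians lay above that of tRNAs as a whole, but the 14 rows include tRNA-Ser-AGA-1-1. Without it the middle value was 2.88, that of tRNA-Ser-GCT-3-1, which lay below the leucine median. The leucine and tRNA lists were not cut in the same way. Within single lines 13 rows were measured, without tRNA-Ser-AGA-1-1, and the order of the medians varied. In shDis3l2 the median log2 ratio was 3.75, against 3.11 for leucine rows and 2.67 for all tRNA rows. In shNS it was 2.26, against 2.96 for leucine rows and 1.98 for all tRNA rows. The 5 EV libraries are different genotypes, and no group has a replicate. The p-values rest on the spread left among the 7 libraries after Dis3l2 class and compartment, which edgeR estimates with sharing across RNAs.

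The TGA family rose by 4.89 on the log2 scale (SE 0.725, adjusted p 4.8e-05, edgeR). GGA rose by 5.17 (SE 0.959, adjusted p 3.0e-04, edgeR), a value that rests on its few cell counts. AGA rose by 3.59, CGA by 3.28, GCT by 2.40 and selenocysteine by 2.03 on the log2 scale, so all 6 families were called, where 19.6% of 485 features were called higher once tRNA rows were summed. Of the 50 tRNA families tested, 42 were called higher. Scaling by the totals of tRNA rows in place of all RNAs moved the median of all RNAs by -2.45 in the shNS pair and by -2.96 in the shDis3l2 pair. On that scale TGA alone stayed past the threshold among the 6 families, at 2.22 (adjusted p 0.00612, edgeR), and the values of selenocysteine and GCT turned to -0.72 and -0.28. As a share of tRNA counts, serine and selenocysteine rows made up 6.80% in D389N EVs, 5.00% in Dis3l2r EVs, 4.78% in Vector EVs, 4.13% in shDis3l2 EVs and 4.12% in shNS EVs, against 5.57% in shDis3l2 cells and 4.95% in shNS cells. Their exact (Clopper-Pearson) 95% intervals reached at most 0.026 points either side. These ranges overlap, with a difference of -0.30 percentage points (two-sided exact permutation test over libraries, p = 0.762; the smallest p this design allows is 0.0952).

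Single rows went further apart than their families. The row tRNA-Ser-TGA-2-1 had 10991 CPM in D389N EVs, 4852 in Dis3l2r EVs, 3017 in Vector EVs, 2834 in shDis3l2 EVs and 2228 in shNS EVs, against 52.3 in shDis3l2 cells and 123.7 in shNS cells. This is a log2 fold change of 5.72 (SE 0.877, adjusted p 5.9e-05, edgeR). The row tRNA-Ser-GCT-1-1 had 824.7 CPM in D389N EVs, 661.0 in Dis3l2r EVs, 1078 in Vector EVs, 591.6 in shDis3l2 EVs and 378.5 in shNS EVs, against 17.7 in shDis3l2 cells and 25.6 in shNS cells. Its log2 fold change was 4.93 (SE 0.625, adjusted p 1.1e-05, edgeR). All 5 EV libraries of both rows lay above both cell libraries. The row tRNA-Ser-AGA-1-1 had 180 counts over the 5 EV libraries and 0 in both cell libraries, which makes it at least 40.9-fold higher in EVs (floor of 3 counts over both cell libraries together). Vector EVs held 97 of these counts and shNS EVs 6, and without the Vector library the row was at least 25.1-fold higher, a bound added after the values were seen. The last row of that family, tRNA-Ser-AGA-3-1, held 8 counts in EVs and 0 in cells and was not tested.

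Apart from GGA, the other rows called higher lay between 1.66, for tRNA-Ser-GCT-5-1 (adjusted p 0.0345, edgeR), and 3.88, for tRNA-Ser-TGA-1-1. The 2 rows of the GCT family that were not called were tRNA-Ser-GCT-2-1, at 0.99 (adjusted p 0.0578, edgeR), and tRNA-Ser-GCT-4-1, at 0.072 (adjusted p 0.892). The row tRNA-Ser-GCT-4-1 had 146.9 CPM in D389N EVs, 183.0 in Dis3l2r EVs, 287.1 in Vector EVs, 306.0 in shDis3l2 EVs and 291.1 in shNS EVs, against 194.0 in shDis3l2 cells and 274.8 in shNS cells, so its EV and cell libraries overlapped. With totals of tRNA rows as the scale, both rows were lower in EVs, at -1.72 (adjusted p 0.00178, edgeR) and -2.65 (adjusted p 2.8e-04).

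Within single lines, with at least 100 counts over a pair, a ratio of at least 2 and a 95% counting interval that excluded 1 as the rule of size, 12 of 13 rows were higher in EVs than in cells of shDis3l2, and 11 of 13 in shNS. None was lower in either line by whole-RNA totals. With totals of tRNA rows, 5 rows were higher and 4 lower in shDis3l2, and 3 were higher and 3 lower in shNS. The same rule took 33.1% of 525 RNAs as higher in shDis3l2 and 32.0% of 531 in shNS. Among all tRNA rows it took 134 of 163 as higher in shDis3l2 and 128 of 164 in shNS. The log2 ratio of tRNA-Ser-TGA-2-1 was 5.76 (95% counting interval 5.69 to 5.83) in shDis3l2 and 4.17 (4.13 to 4.22) in shNS. For tRNA-Ser-GCT-3-1, the most abundant GCT row, it was 3.75 (3.72 to 3.77) in shDis3l2 and 1.99 (1.98 to 2.01) in shNS. The selenocysteine row had the smaller ratio in shDis3l2, with 1.52 (1.51 to 1.53) against 2.06 (2.05 to 2.07) in shNS. So had tRNA-Ser-GGA-1-1, with 4.94 in shDis3l2 and 6.14 in shNS, and tRNA-Ser-CGA-3-1, with 1.98 in shDis3l2 and 2.26 in shNS.

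**Figure D2:**
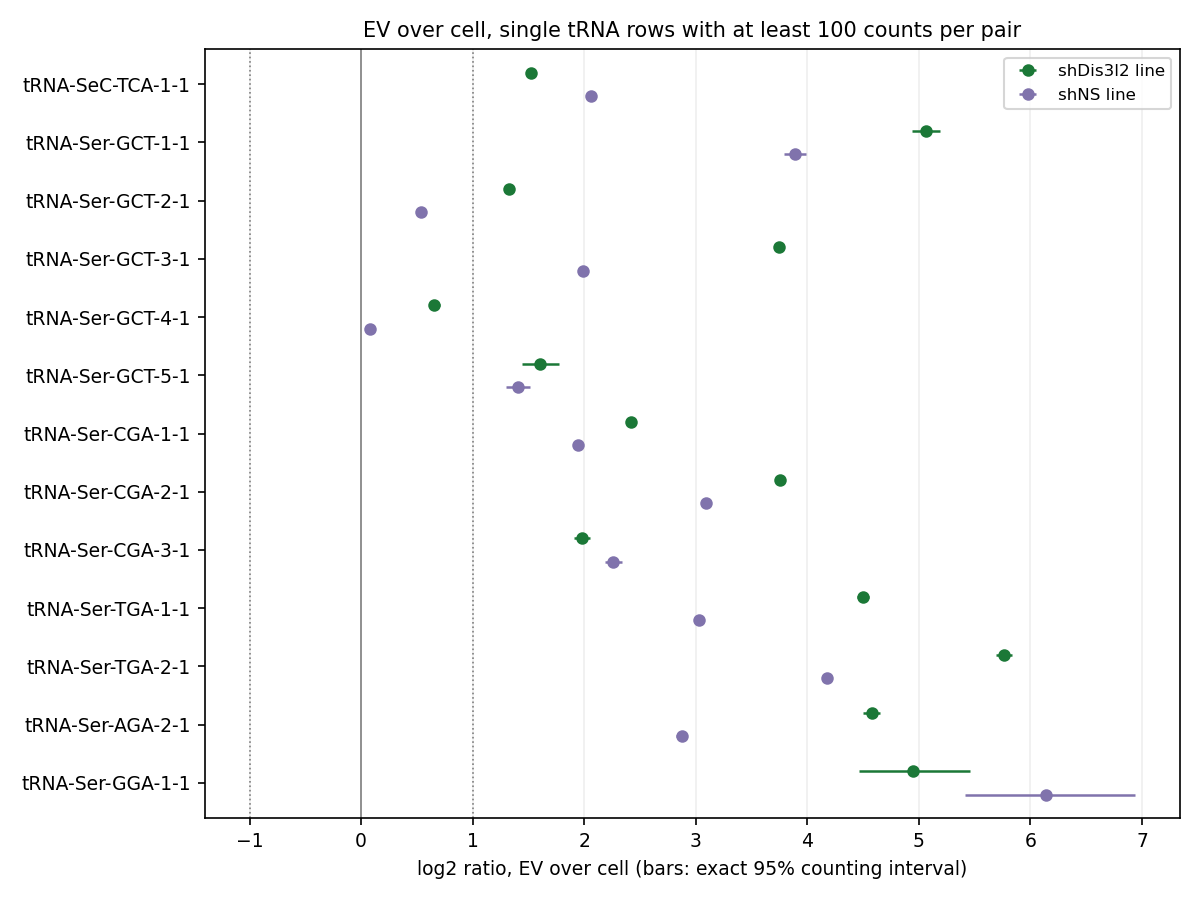
Log2 ratio of CPM in EVs over cells (x axis) for the 13 rows with at least 100 counts in the pair, for the shDis3l2 line (green) and the shNS line (purple), 1 library on each side; bars are exact 95% counting intervals, and dotted lines mark 2-fold. The points run from 0.083 for tRNA-Ser-GCT-4-1 in shNS to 6.14 for tRNA-Ser-GGA-1-1 in shNS, and rows of the GCT family are spread over most of that range.

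The make-up of the TGA, CGA and GCT families differed between EVs and cells, a comparison that needs no scaling between libraries. In the TGA family, tRNA-Ser-TGA-2-1 held 82.0% of the family's counts in D389N EVs, 72.5% in Dis3l2r EVs, 58.3% in Vector EVs, 58.7% in shDis3l2 EVs and 60.0% in shNS EVs, against 37.3% in shDis3l2 cells and 40.4% in shNS cells. It was the larger of its pair in all 5 EV libraries and the smaller in both cell libraries. In the CGA family, tRNA-Ser-CGA-2-1 held 85.4% in D389N EVs, 80.3% in Dis3l2r EVs, 74.3% in Vector EVs, 72.7% in shDis3l2 EVs and 74.4% in shNS EVs, against 49.8% in shDis3l2 cells and 57.7% in shNS cells. The D389N and Dis3l2r EVs were the highest libraries for both of these rows. Exact (Clopper-Pearson) 95% intervals for rows of TGA, CGA and GCT reached at most 1.42 percentage points either side, in counting error only.

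In the GCT family the leading row, tRNA-Ser-GCT-3-1, held 77.1% in D389N EVs, 79.1% in Dis3l2r EVs, 78.7% in Vector EVs, 79.1% in shDis3l2 EVs and 80.3% in shNS EVs, against 47.0% in shDis3l2 cells and 64.9% in shNS cells. The row tRNA-Ser-GCT-1-1 held 5.32% to 11.2% in EVs, against 1.64% in shDis3l2 cells and 1.16% in shNS cells. The reverse held for tRNA-Ser-GCT-2-1, with 8.85% to 10.0% in EVs against 32.0% in shDis3l2 cells and 20.3% in shNS cells, and for tRNA-Ser-GCT-4-1, with 1.99% to 4.09% in EVs against 18.0% in shDis3l2 cells and 12.4% in shNS cells. The AGA family was a single row in practice, since tRNA-Ser-AGA-2-1 held at least 99.7% of it in every library.

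For the 12 serine rows with at least 100 counts in families of more than 1 row, the shares in the 5 EV libraries did not overlap those in the 2 cell libraries, 5 being higher and 7 lower in EVs. Over all 175 tRNA rows in families of more than 1 row, the shares did not overlap for 62.9%, with 34.9% higher and 28.0% lower in EVs. The 2 AGA rows among the 12 rest on 0 counts of tRNA-Ser-AGA-1-1 in cells, which allows a share of up to 0.211% in shDis3l2 cells and 0.0799% in shNS cells, above the 0.0357% measured in shNS EVs, so their separation was not detectable at this depth. Shares of a family add up to the whole, so rows of a family are not independent. Each such split has a two-sided exact permutation p of 0.0952, the smallest that 5 against 2 libraries can give. With adjustment over the 34 share comparisons made, it is 0.141, so none passes 0.05.

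**Figure D3:**
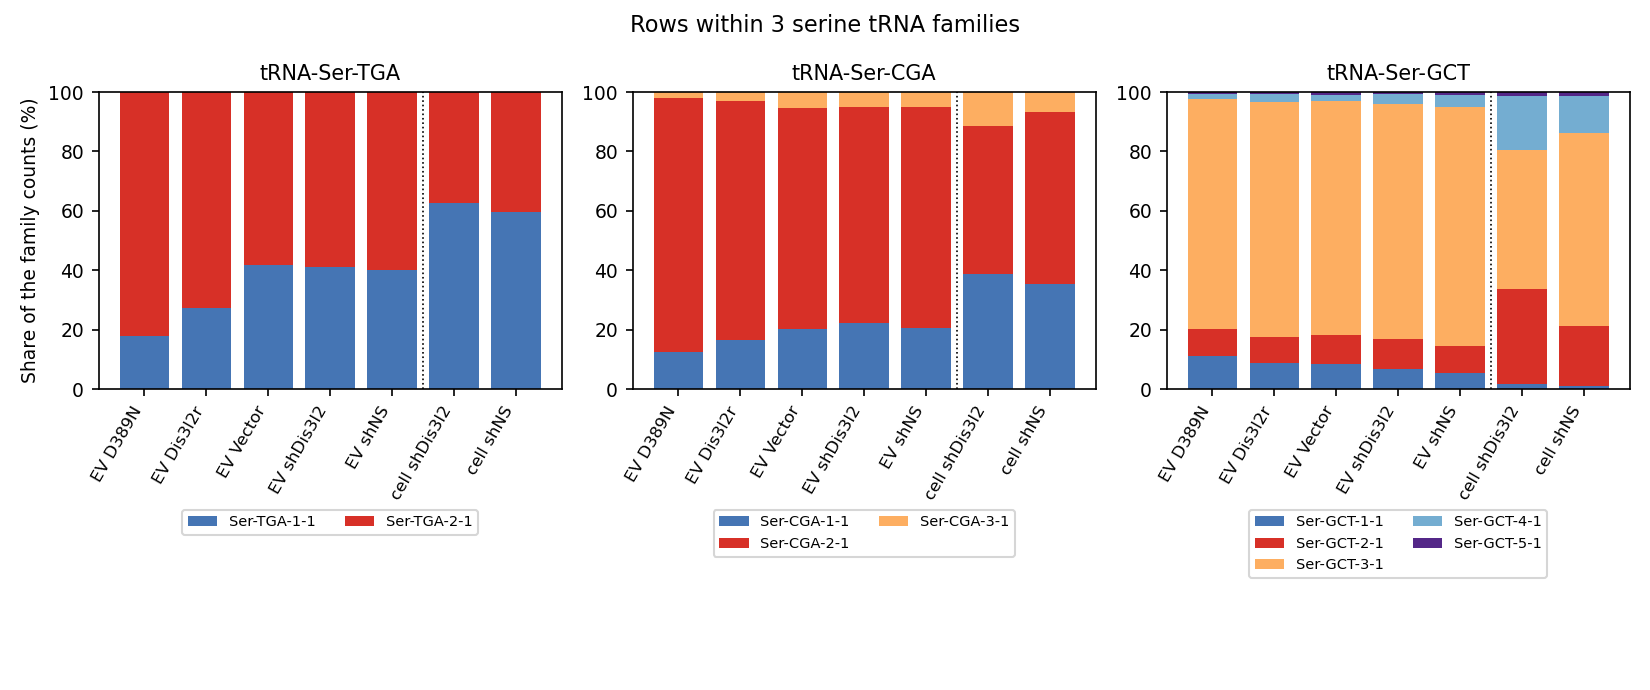
Share of the counts of the TGA, CGA and GCT families (percent, stacked to 100) held by each row in the 7 libraries, with EVs left of the dotted line and cells right of it. tRNA-Ser-TGA-2-1 takes 58.3% or more of its family in every EV library and 40.4% or less in both cell libraries. For tRNA-Ser-CGA-2-1 these bounds are 72.7% and 57.7%, and for tRNA-Ser-GCT-3-1 they are 77.1% and 64.9%.

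The selenocysteine tRNA took a smaller part of the group in EVs. Its ratio to the summed serine rows was 0.653 in D389N EVs, 0.634 in Dis3l2r EVs, 0.371 in Vector EVs, 0.455 in shDis3l2 EVs and 0.854 in shNS EVs, against 1.71 in shDis3l2 cells and 1.00 in shNS cells. As a share of serine and selenocysteine counts this was 36.5% ± 7.45 in EVs (SD, n = 5 libraries of different lines) and 56.6% over the 2 cell libraries, without overlap (exact permutation test, p = 0.0952, adjusted 0.141). With serine counts alone as the whole, the GCT family made up 23.9% to 47.6% in EVs, against 57.7% to 65.3% in cells. Of serine and selenocysteine counts it made up 14.5% to 34.7% in EVs and 21.3% to 32.6% in cells, which overlapped. The TGA family made up 19.3% to 43.5% of serine counts in EVs, against 7.50% to 9.03% in cells.

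The second question is what knockdown of Dis3l2 did to these tRNAs in each compartment. In EVs, 0 of 13 rows passed the rule of size, where 11.2% of 411 RNAs did so in either direction. In cells, 1 of 12 rows passed it: tRNA-Ser-GCT-3-1 was lower, with a log2 ratio of -1.23 (95% counting interval -1.26 to -1.21), where 35.7% of the 513 RNAs passed the rule and 24.0% of the 513 were lower. Its call was lost with totals of tRNA rows as the scale, at -0.91. By that scale tRNA-Ser-CGA-3-1 passed instead, as higher, at 1.03, against 0.71 by trimmed means (TMM).

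Below the rule of size, the serine families AGA, CGA, GCT and TGA stood on opposite sides of 0 in the 2 compartments. The cell side was shared by most tRNA families: 37 of 48 were below 0 in cells, with a median log2 ratio of -0.69. In EVs 23 of 49 tRNA families were above 0, with a median of -0.038. The log2 ratio of shDis3l2 over shNS for AGA was 0.59 (95% counting interval 0.56 to 0.62) in EVs and -0.94 (-1.03 to -0.85) in cells. For TGA it was 0.47 (0.46 to 0.48) in EVs and -0.86 (-0.91 to -0.81) in cells, and for GCT it was 0.37 (0.36 to 0.38) in EVs and -0.77 (-0.79 to -0.75) in cells. CGA had 0.24 (0.22 to 0.25) in EVs and -0.078 (-0.10 to -0.05) in cells, and its cell value turned to 0.25 with totals of tRNA rows. GGA had 0.31 (0.16 to 0.47) in EVs, and its 37 and 16 counts in shDis3l2 and shNS cells were too few for a ratio by the rule. Those few counts give a cell log2 ratio of 1.69 (0.79 to 2.62), above 0 as in EVs. Selenocysteine stood the other way round, at -0.54 (-0.55 to -0.53) in EVs and 0.18 (0.16 to 0.19) in cells, the cell value being -0.092 with totals of whole-RNA rows.

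**Figure D4:**
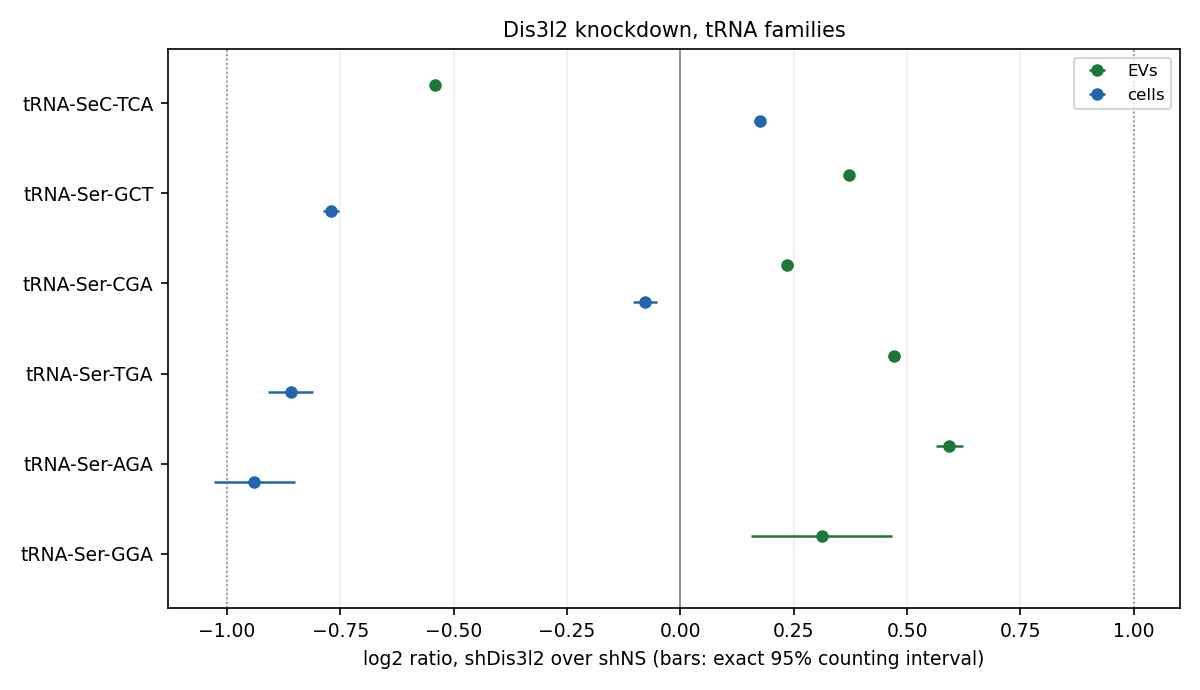
Log2 ratio of shDis3l2 over shNS (x axis) for the 6 families in EVs (green) and in cells (blue), 1 library on each side; bars are exact 95% counting intervals, dotted lines mark 2-fold, and GGA has no cell point. All points lie within 2-fold, with serine families right of 0 in EVs and, GGA aside, left of 0 in cells, and selenocysteine the reverse, by TMM scaling. With totals of tRNA rows the CGA cell value is 0.25.

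The ratio of selenocysteine to serine counts does not depend on the scaling. In cells it was 1.71 in shDis3l2 against 1.00 in shNS, a log2 change of 0.77. In EVs it was 0.455 in shDis3l2 against 0.854 in shNS, a log2 change of -0.91. Of the 12 rows measured in both compartments, 8 were lower in shDis3l2 cells and higher in shDis3l2 EVs than in their shNS counterparts, against 47 of 149 for all tRNA rows. The count of 8 was 9 with DESeq2 size factors and with whole-RNA totals, and 4 with totals of tRNA rows and without the most abundant cell row. For all tRNA rows the count was taken by TMM only, so the 9 and the 4 have no matching background. With 1 library per group these differences have no replicate check.

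The third question is what the transgenes did in EVs of shDis3l2 cells. The comparisons with Vector share the Vector library, and those with D389N share the D389N library, so their values are not independent. In D389N against Vector EVs, 4 of 14 rows passed the rule of size, 2 as higher and 2 as lower, where 23.2% of 379 RNAs passed it, 10.8% as higher and 12.4% as lower. Of the 171 tRNA rows measured, 12 were higher and 28 lower by the rule. tRNA-Ser-TGA-2-1 was higher by a log2 ratio of 2.12 (95% counting interval 2.11 to 2.13) and tRNA-SeC-TCA-1-1 by 1.27 (1.26 to 1.28). The lower rows were tRNA-Ser-GCT-5-1, at -1.27 (-1.39 to -1.16) from 793 counts in D389N EVs and 2743 in Vector EVs, and tRNA-Ser-AGA-1-1, at -1.09 (-1.70 to -0.49) from 32 counts in D389N EVs and 97 in Vector EVs. The call of tRNA-Ser-AGA-1-1 was lost with DESeq2 size factors, at -0.95. Among the other families CGA stood at 0.57, GCT at -0.54, GGA at -0.66 and AGA at -0.71, all within 2-fold.

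In Dis3l2r against Vector EVs, 4 of 14 rows passed the rule of size and all were lower, where 32.1% of 393 RNAs passed it, 7.38% as lower. Of the 166 tRNA rows measured, 25 were lower and 1 was higher by the rule, so tRNA rows made up most of the 29 RNAs called lower. tRNA-Ser-GGA-1-1 stood at -1.96 (-2.21 to -1.72), tRNA-Ser-AGA-1-1 at -1.43 (-2.21 to -0.74), tRNA-Ser-AGA-2-1 at -1.06 (-1.09 to -1.02) and tRNA-Ser-CGA-3-1 at -1.03 (-1.09 to -0.97). The last 2 lay just past the rule: with totals of tRNA rows they stood at -0.86 and -0.83. The GCT family stood at -0.84 and CGA at -0.25, while TGA stood at 0.30 and selenocysteine at 0.38.

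D389N against Dis3l2r EVs set the inactive against the active transgene. Here 2 of 13 rows passed the rule of size, both higher, where 24.5% of 379 RNAs passed it and 2.64% as higher. Of the 161 tRNA rows measured, 7 were higher and 5 lower by the rule. tRNA-Ser-TGA-2-1 had 230272 counts in D389N EVs against 65212 in Dis3l2r EVs, a log2 ratio of 1.41 (1.40 to 1.42), and kept its call by every scaling tried, with 1.09 as the lowest value. The same row also stood higher in Dis3l2r than in Vector EVs, at 0.62 (0.60 to 0.63), and at 0.35 to 0.82 over the scalings tried. tRNA-Ser-GGA-1-1 had 473 counts in D389N EVs against 154 in Dis3l2r EVs, a log2 ratio of 1.21 (0.94 to 1.48), which was 0.89 with totals of tRNA rows. Selenocysteine stood at 0.79, and its ratio to serine counts was 0.653 in D389N EVs and 0.634 in Dis3l2r EVs, a log2 change of 0.042.

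**Figure D5:**
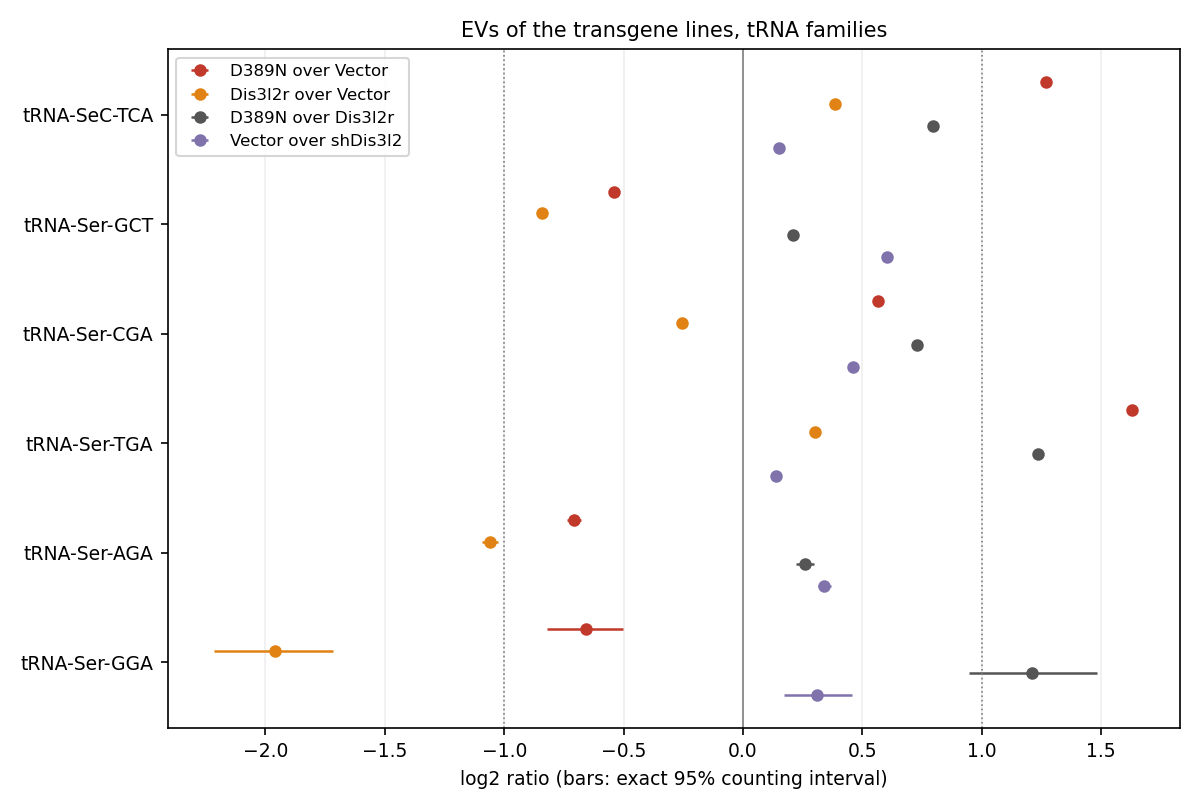
Log2 ratio between EV libraries (x axis) for the 6 families in D389N over Vector (red), Dis3l2r over Vector (orange), D389N over Dis3l2r (grey) and Vector over shDis3l2 (purple), 1 library on each side; bars are exact 95% counting intervals and dotted lines mark 2-fold. TGA and GGA lie past 2-fold in D389N over Dis3l2r, at 1.23 and 1.21 by TMM (0.91 and 0.89 with totals of tRNA rows), and GGA reaches -1.96 in Dis3l2r over Vector.

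Vector against shDis3l2 EVs compares lines with the same shRNA and no Dis3l2 transgene. All 6 families were within 2-fold, from 0.14 for TGA to 0.60 for GCT. Of 14 rows, 2 passed the rule of size as higher, where 8.91% of 393 RNAs did so and 23.7% in either direction: tRNA-Ser-AGA-1-1, at 1.54 (0.89 to 2.24) from 97 counts in Vector EVs and 25 in shDis3l2 EVs, and tRNA-Ser-GCT-5-1, at 1.31 (1.19 to 1.42) from 2743 counts in Vector EVs and 832 in shDis3l2 EVs. Of the 170 tRNA rows measured, 27 were higher and 2 lower by the rule. Selenocysteine stood at 0.15. Its ratio to serine counts was 0.371 in Vector EVs and 0.455 in shDis3l2 EVs, the 2 lowest of the 7 libraries.

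Taking lines by their assigned class, EVs without active Dis3l2 (D389N, Vector and shDis3l2) were set against EVs with it (Dis3l2r and shNS). The class follows the genotype in the labels, and no label states a measured Dis3l2 activity. No row of 14 and no family of 6 passed (edgeR quasi-likelihood test, adjusted p under 0.05); 0 rows reached an unadjusted p under 0.05, and DESeq2 called 0. Of all RNAs, 0.178% of 561 were called as rows and 0.243% of 411 with tRNA rows summed. The 14 rows had log2 fold changes from 0.13 to 1.63, with a median of 0.65, against 0.48 for leucine rows, 0.32 for all tRNA rows and 0.075 for all RNAs. tRNA-Ser-GCT-1-1 stood at 0.93 (SE 0.452, adjusted p 0.658, edgeR), with 824.7 CPM in D389N EVs, 1078 in Vector EVs and 591.6 in shDis3l2 EVs, against 661.0 in Dis3l2r EVs and 378.5 in shNS EVs. Its classes overlapped, since the shDis3l2 value lay below that of Dis3l2r. Selenocysteine, at 0.24 (SE 0.460, adjusted p 0.803, edgeR), changed sign without the D389N library, to -0.30.

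Profiles over the 7 libraries were compared by the root mean square difference of log2 CPM, each centred on its own mean. The summed serine rows were most like the glutamine tRNAs (0.179 on the log2 scale), then the initiator methionine tRNA (0.226) and the proline tRNAs (0.258), among 21 other tRNA groups. By family, among 44 others, the closest were Arg-TCT for AGA (0.185), Gln-CTG for CGA (0.209), Val-TAC for GCT (0.260) and Glu-CTC for selenocysteine (0.273). TGA and GGA had no such near neighbour, their closest being Lys-TTT at 0.612 and Arg-CCG at 0.885. All points share the 7 libraries, and the gap between EVs and cells enters every profile.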

How the data were processed

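The authors deposited estimated counts per RNA, as Salmon gives them, in 1 table of 7 libraries with no scaling. The submitters' processing notes name Salmon, Novoalign, UMI-tools and cutadapt, and the mouse builds GRCm38 and mm10; versions and the order of steps are not given in the sources used. Per the labels' protocols, RNA was copied by a template-switching group II intron reverse transcriptase, and a random tag for deduplication was ligated to the cDNA.

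Of 580839 rows, the 3894 for whole RNAs (3639 transcripts, 224 tRNA rows in 51 families and 15 spliced tRNAs among them) were used, and their totals served as depth. Intervals and fits took the counts as rounded whole numbers. Pairs of EVs against cells were scaled by these totals, other pairs by TMM, with exact conditional binomial 95% intervals, which cover counting error only. Fits used edgeR 4.0.16 with filterByExpr (totals for EVs against cells, TMM for Dis3l2 class), and DESeq2 1.42.0, R 4.3.3, Python 3.11.15 and scipy 1.17.1 were also used. Scripts were tested on simulated data. All 6 families were named, and single rows from 100 counts over the 7 libraries, with values in every library for leading rows of families and for rows that passed a test or the rule of size (at most 5 each way per comparison). tRNA-Ser-AGA-3-1 (8 counts) was named, and tRNA-Ser-GCT-4-1 given in every library, outside that rule after their values were seen. The members and lists were chosen with earlier results of these data known. Names of tRNA genes came from RefSeq, GRCm38.p6.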

Additional observations from a re-analysis of the deposited data

Results flagged for a closer look

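For 5 families the log2 ratio of shDis3l2 over shNS had opposite signs in EVs and in cells. Selenocysteine had -0.54 in EVs and 0.18 in cells. AGA had 0.59 in EVs and -0.94 in cells, TGA had 0.47 in EVs and -0.86 in cells, GCT had 0.37 in EVs and -0.77 in cells, and CGA had 0.24 in EVs and -0.078 in cells. Of all tRNA families, 37 of 48 were below 0 in cells and 23 of 49 were above 0 in EVs. How many of them had opposite signs was not counted. Of 149 tRNA rows measured in both compartments, 47 were lower in cells and higher in EVs, and 19 were the reverse. The difference between compartments was not tested, since each group had 1 library. By other scalings the cell value ranged from -0.34 to 0.25 for CGA and from -0.092 to 0.50 for selenocysteine, so the opposite signs of these families depend on the scaling. For AGA, TGA and GCT the cell value stayed below 0 (-1.21 to -0.61, -1.13 to -0.53 and -1.04 to -0.44) and the EV value above 0 under each scaling tried. Named tRNA rows took 9.09% of counts in shDis3l2 cells and 13.7% in shNS cells, and 1 transcript row took 46.1% and 19.3%; without that row AGA, TGA and GCT were still below 0 in cells.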

How the results depend on the processing

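The comparison of EVs with cells depended most on the scale. With totals of tRNA rows, 6 rows were past the rule of size in shNS, 3 higher and 3 lower (11 higher by whole-RNA totals), and 9 in shDis3l2, 5 higher and 4 lower (12 higher by whole-RNA totals), and 1 family was called over the 5 EV and 2 cell libraries (6 by whole-RNA totals). The same scale turned selenocysteine to -0.39 and GCT to -0.77 in the shNS pair, selenocysteine to -1.44 in the shDis3l2 pair, and selenocysteine and GCT to -0.72 and -0.28 in the fit. Leaving out single libraries gave 10 to 12 called rows, 6 families in each case, and 0 rows and 0 families for Dis3l2 class. Selenocysteine in the class fit was -0.091 with whole-RNA totals, -0.13 with tRNA totals and, with single libraries left out, between -0.30 (without D389N EVs) and 0.50 (without shDis3l2 EVs). In cells, the knockdown count of 1 row became 3 with DESeq2 size factors, 4 with whole-RNA totals and 2 with a minimum of 20 counts, and in EVs the count of 0 became 1 with that minimum. For Dis3l2r against Vector the count of 4 became 8 with DESeq2 size factors and 2 with whole-RNA totals, with tRNA totals and without the most abundant cell row. For D389N against Dis3l2r the count of 2 became 6 with DESeq2 size factors and 1 with each of those other scales. For Vector against shDis3l2 it became 1 with a minimum of 500 counts (2 before). The causes were not tested. The difference in share of -0.30 points was 3.07 points with all whole-RNA counts as denominator, and -0.757 to 0.0124 when single libraries were left out, the highest without shDis3l2 cells. No paired analysis by replicate number was possible because the labels give none, but the fit of the shDis3l2 and shNS lines alone, which holds the line as a block, called 10 of 13 rows and 6 of 6 families higher in EVs than in cells. With 1 library per group, depth limits mainly GGA in cells and the rows of AGA below 100 counts.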
